A study of Homo sapiens with 6 samples.

Results

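The messenger RNAs of the nuclear pore and of its carriers were followed in HCT-116, an established human colorectal carcinoma cell line, after transfection with an antisense GapmeR against the long noncoding RNA CASC9. The set was every gene of the expression table whose symbol is NUP, KPNA, KPNB, IPO or XPO with its number or letter (NUP50, KPNA2, IPO9, XPO1, XPOT), chosen by symbol alone and not by any measured value. It held 42 of 27918 genes and loci, 21 nucleoporins and 21 karyopherins. A GapmeR is a short oligonucleotide with a DNA center that lets RNase H cut the RNA it pairs with. Cells received 10 nM of the CASC9 GapmeR (GapC9, 3 libraries) or 10 nM of a negative control GapmeR (GapNC, 3 libraries), both by lipofection into the parental line, and poly(A) RNA was sequenced in read pairs. The methods give harvest at 48 h and the results give 24 h. Only this line was sequenced, and nothing says whether the 3 libraries of a group came from separate cultures, so the p-values measure the spread between these libraries, which may be technical.

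The nuclear pore complex is the channel in the nuclear envelope. Its outer and inner rings form the scaffold, FG nucleoporins with phenylalanine-glycine repeats line the central channel, fibrils reach into the cytoplasm, and a basket hangs into the nucleus. Karyopherins carry cargo through it: importin alpha (KPNA) binds a nuclear localization signal and is itself carried by importin beta (KPNB1), other importins (IPO) bind cargo directly, and exportins (XPO) carry protein or RNA out, all under control of the small GTPase RAN. XPO1 is also known as a drug target in cancer.

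Values are FPKM, fragment counts scaled to exon length and to library size, which allows levels of different genes to be compared. Depth was estimated at 22.7 to 24.4 M (mega) fragments. The most frequent low value of FPKM times transcript length, among genes with 1 transcript, was taken as 1 fragment. It was searched only within a window set beforehand, which also bounds the estimate. Changes are log2 fold changes, GapC9 minus GapNC, fitted by limma to log2(FPKM + 0.1) of the 16028 genes whose mean reached 0.1 FPKM, and a change was called at an adjusted p (Benjamini-Hochberg over all 16028) under 0.05. This scale understates the change of low genes. The epithelial markers EPCAM and KRT8 were at 62.3 to 88.4 and at 316 to 480 FPKM. KRT18, CDH1 and CLDN4 were detected in every library, the leukocyte marker PTPRC was listed at 0 in 5 libraries and reached 0.00514 FPKM in the other, and PECAM1 stayed at or below 0.0467 FPKM. The mesenchymal genes COL1A1, COL3A1 and ACTA2 were at 1.06 to 4.13 FPKM over all libraries. CASC9, the targeted gene, was at 0, 0.0108 and 0 FPKM in the GapNC libraries and at 0.0528, 0.107 and 0 FPKM in the libraries labelled GapC9 (exact two-sided permutation p = 0.4, where 0.1 is the smallest that 3 against 3 can give). CASC9 was so low in the GapNC libraries that a decrease could not have been detected here, so these values do not check the labels, and "GapC9" below means the libraries labelled GapC9.

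Of the 40 nucleoporin and karyopherin genes that passed the filter, 4 changed: NUP50, a protein of the nuclear basket, rose, and NUP54 of the central channel, NUP214 of the cytoplasmic fibrils and the importin IPO9 fell. These are 10.0% of the 40, beside 6.99% of all genes tested, which is near the background. The single rise stands beside 1.89% of all genes and the 3 falls beside 5.1%. The changes were of moderate size, with ratios of mean FPKM between 0.684 and 1.52. At the study's own thresholds, a ratio of at least 2 or at most 0.5 with an unadjusted p under 0.05, 0 of the 40 were called by limma, beside 6.42% of all genes tested. KPNA7 (0 to 0.0510 FPKM) and NUP210L (0.0206 to 0.0360 FPKM) lay below the filter and were not tested.

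For the 4 genes that changed, the 250 bases upstream of the start listed by RefSeq are given, read 5′ to 3′ in the direction of the gene from its promoter table of GRCh38.p14, to show what lies at the start of each of these genes. The GENCODE annotation, from which the gene positions below were taken, starts each gene further upstream, so the last 84 bases of the window of NUP50, 118 of NUP54, 25 of NUP214 and 16 of IPO9 lie inside the gene as GENCODE bounds it. Capitals mark matches, on either strand, to the letters of 5 common promoter elements. The GC box was searched as GGGCGG, the box bound by the factor NF-Y as CCAAT, the element of the ETS factors as CCGGAAG, the element of NRF1 as GCATGCGC, and the TATA box as TATAAA. For NUP50 and NUP214 the first of 2 listed starts was used.
NUP50, plus strand, chr22:45163675-45163924: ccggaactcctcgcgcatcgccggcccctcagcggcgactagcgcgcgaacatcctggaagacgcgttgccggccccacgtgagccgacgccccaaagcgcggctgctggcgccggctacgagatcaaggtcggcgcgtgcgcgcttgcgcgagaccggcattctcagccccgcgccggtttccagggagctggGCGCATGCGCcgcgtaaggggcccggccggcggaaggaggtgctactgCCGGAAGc
NUP54, minus strand, chr4:76148398-76148647: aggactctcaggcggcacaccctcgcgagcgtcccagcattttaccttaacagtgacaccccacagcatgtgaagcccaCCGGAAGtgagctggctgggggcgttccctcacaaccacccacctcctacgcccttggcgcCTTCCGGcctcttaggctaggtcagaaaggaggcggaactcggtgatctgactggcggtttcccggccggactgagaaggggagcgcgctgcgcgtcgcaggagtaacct
NUP214, plus strand, chr9:131125336-131125585: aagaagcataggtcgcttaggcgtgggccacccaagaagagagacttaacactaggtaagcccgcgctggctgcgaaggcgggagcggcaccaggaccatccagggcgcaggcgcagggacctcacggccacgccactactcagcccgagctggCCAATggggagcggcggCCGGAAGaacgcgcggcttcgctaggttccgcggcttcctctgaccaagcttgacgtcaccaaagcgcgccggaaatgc
IPO9, plus strand, chr1:201828907-201829156: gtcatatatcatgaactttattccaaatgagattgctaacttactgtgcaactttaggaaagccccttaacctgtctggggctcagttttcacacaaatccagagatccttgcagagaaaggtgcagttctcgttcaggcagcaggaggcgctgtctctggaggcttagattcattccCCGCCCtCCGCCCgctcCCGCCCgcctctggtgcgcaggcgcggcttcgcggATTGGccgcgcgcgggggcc

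NUP50 held 1 ETS match and an NRF1 match that reads on both strands and overlaps itself, both inside the gene by the GENCODE bounds. NUP54 held 2 ETS matches, the second of them inside, NUP214 held a CCAAT box and an ETS match, both before the gene, and IPO9 held 3 GC boxes before the gene and a CCAAT box across its start. The gene that rose and 2 of the 3 that fell thus shared the ETS letters. Promoters of 36 of the 42 genes were matched in the table, and their first listed starts were searched in the same window. ETS letters stood in 11 of the 36 (30.6%), beside 8.82% of 27305 promoters and 15.4% of the 10657 promoters of genes tested here. NRF1 letters stood in 4 (11.1%), beside 2.81% and 4.72%. A GC box stood in 18 (50.0%), beside 42.3% and 66.8%. A CCAAT box stood in 16 (44.4%), beside 33.0% and 34.6%, and a TATA box in 2 (5.56%), beside 11.1% and 5.48%. The ETS letters were also present upstream of NUP35, NUP37, NUP58, NUP88, NUP107, NUP160, IPO4 and XPOT, all described below. NUP35 and IPO4 had fitted log2 differences of −0.67 and −0.35. Those of the others lay between −0.09 (XPOT) and 0.13 (NUP107). The 5 elements were chosen after some of these sequences had been read, and a match of letters is a description and not a binding site.

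Both nuclear basket genes of the set, NUP50 and NUP153, had higher values in every GapC9 library than in any GapNC library, and NUP50 passed the test. NUP50 (GRCh38 chromosome 22, 45163841 to 45188015, plus strand), which binds importin alpha and helps release its cargo on the nuclear side, was at 22.1, 25.4 and 25.1 FPKM in GapNC and at 37.2, 38.8 and 34.6 FPKM in GapC9. The lowest GapC9 library lay well above the highest GapNC library. The mean went from 24.2 ± 1.81 to 36.9 ± 2.10 FPKM (SD, n = 3 each), a log2 change of 0.61 ± 0.10 (SE, 95% interval 0.36 to 0.85, adjusted p = 0.0308 by limma). In bulk RNA, a change in the number of cells that express a gene cannot be told apart from a change in RNA per cell. NUP153, which anchors NUP50 at the basket and docks importins, was at 23.5, 26.5 and 26.7 FPKM in GapNC and at 30.4, 31.3 and 34.1 FPKM in GapC9. The groups did not overlap, but the log2 difference of 0.32 ± 0.10 (95% interval 0.08 to 0.56) had an adjusted p of 0.112 by limma. The summed level of both genes was 49.8 ± 3.62 FPKM in GapNC and 68.8 ± 1.304 FPKM in GapC9. TPR, the filament protein of the basket, whose symbol lies outside the set, was at 19.1, 21.3 and 19.8 FPKM in GapNC and at 16.7, 18.2 and 18.5 FPKM in GapC9 (log2 difference −0.17 ± 0.10, adjusted p = 0.318 by limma). Its groups did not overlap either, but in the opposite direction, with every GapC9 library lower.

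**Figure D1:**
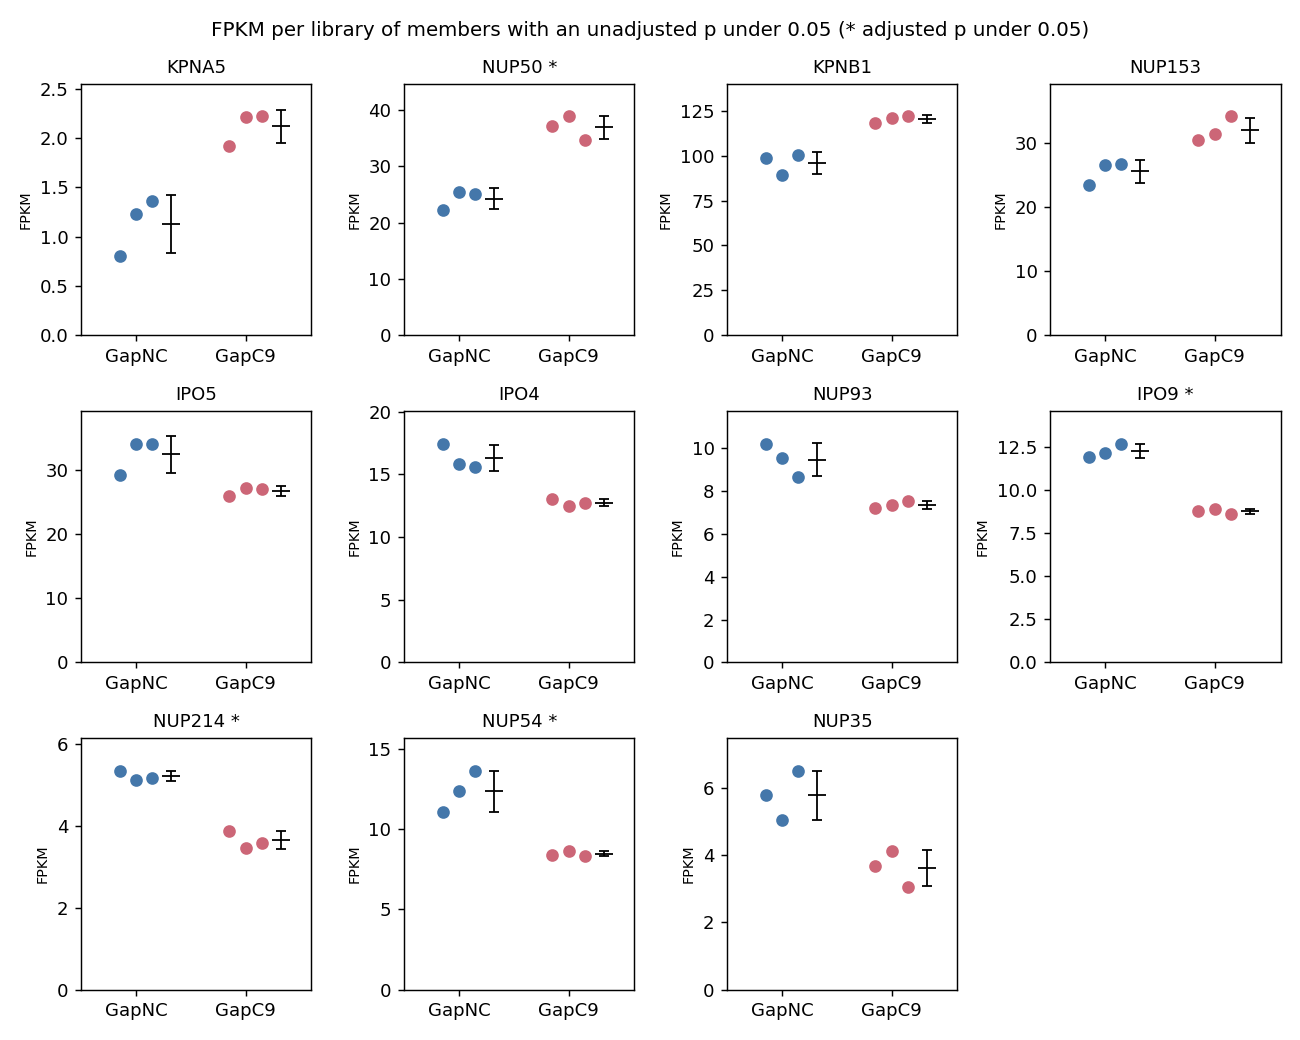
FPKM (vertical axis, starting at 0) in each of the 3 GapNC libraries (blue) and the 3 GapC9 libraries (red) for the 11 nucleoporins and karyopherins with an unadjusted p under 0.05, with the mean and SD in black; an asterisk marks an adjusted p under 0.05. The groups do not overlap in any of the 11, and the GapC9 points of NUP50 (34.6 to 38.8 FPKM) lie above all GapNC points (22.1 to 25.4 FPKM).

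In the central channel 1 of 4 members was called, and it fell. NUP54 (GRCh38 chromosome 4, 76114659 to 76148515, minus strand), an FG nucleoporin that forms a complex with NUP58 and NUP62, was at 11.1, 12.4 and 13.6 FPKM in GapNC and at 8.39, 8.64 and 8.34 FPKM in GapC9. All 3 GapC9 values lay below the lowest GapNC value, and they were much closer to each other than the GapNC values were. The mean went from 12.4 ± 1.29 to 8.46 ± 0.158 FPKM, a log2 change of −0.54 ± 0.11 (95% interval −0.81 to −0.27, adjusted p = 0.0460 by limma). Its partners did not pass the test. NUP62 was at 10.0, 7.40 and 7.23 FPKM in GapNC and at 9.42, 7.87 and 8.16 FPKM in GapC9, with overlapping groups and a log2 difference of 0.06 ± 0.16 (95% interval −0.34 to 0.46, adjusted p = 0.862 by limma). The sign of that difference turned to −0.01, −0.03 or −0.02 without GapNC replicate 2, GapNC replicate 3 or GapC9 replicate 1. NUP58 was at 16.6, 18.7 and 20.0 FPKM in GapNC and at 20.6, 13.6 and 23.2 FPKM in GapC9, so the GapC9 values bracket those of GapNC. The difference between the changes of these partners was not tested. NUP98, an FG nucleoporin that also binds RAE1 in mRNA export, was at 20.1, 21.2 and 21.4 FPKM in GapNC and at 19.0, 20.2 and 19.8 FPKM in GapC9 (log2 difference −0.09 ± 0.08, 95% interval −0.29 to 0.12, adjusted p = 0.561 by limma), and its sign turned under median scaling.

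On the cytoplasmic side, NUP214 fell and NUP88 did not pass the test. NUP214 (GRCh38 chromosome 9, 131125561 to 131234670, plus strand), an FG nucleoporin of the cytoplasmic fibrils that binds XPO1 and the mRNA export helicase, was at 5.34, 5.11 and 5.17 FPKM in GapNC and at 3.88, 3.46 and 3.58 FPKM in GapC9. The groups were far apart relative to their spread. The mean went from 5.21 ± 0.117 to 3.64 ± 0.216 FPKM, a log2 change of −0.51 ± 0.10 (95% interval −0.75 to −0.26, adjusted p = 0.0438 by limma). NUP88, which holds NUP214 at the pore, was at 13.5, 15.1 and 14.8 FPKM in GapNC and at 13.3, 14.1 and 14.1 FPKM in GapC9 (log2 difference −0.06 ± 0.09, 95% interval −0.29 to 0.17, adjusted p = 0.727 by limma, positive under median scaling). RANBP2, the giant nucleoporin of the fibrils, whose symbol lies outside the set, was at 17.5, 19.6 and 20.4 FPKM in GapNC and at 11.8, 13.4 and 14.5 FPKM in GapC9. These groups did not overlap either, and the adjusted p of 0.0550 (log2 difference −0.53 ± 0.12, limma) lay just outside the threshold.

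In the outer ring (the NUP107-NUP160 complex, which also builds new pores), 0 of 6 members were called. The most abundant, NUP160, was at 14.8, 16.3 and 17.9 FPKM in GapNC and at 16.7, 17.1 and 17.3 FPKM in GapC9 (log2 difference 0.07 ± 0.10, 95% interval −0.18 to 0.32, adjusted p = 0.718 by limma), and without GapNC replicate 1 its difference was −0.00067. NUP107 was the lowest of the scaffold, at 1.97 to 2.67 FPKM over the 6 libraries. NUP37 lay between 10.7 and 14.1 FPKM and NUP133 between 8.19 and 10.4 FPKM. NUP85 was at 16.5, 14.9 and 15.1 FPKM in GapNC and at 14.0, 14.6 and 13.0 FPKM in GapC9, with groups that did not overlap by a small margin. NUP43 had the largest fitted fall of all 40 genes and one of the widest spreads. It was at 13.8, 6.23 and 17.6 FPKM in GapNC and at 8.71, 8.82 and 3.95 FPKM in GapC9 (log2 difference −0.76 ± 0.49, 95% interval −1.95 to 0.42, adjusted p = 0.373 by limma), so that the groups overlapped and neither was tight. The difference was −1.20 without GapNC replicate 2, −0.46 without GapNC replicate 3 and −0.39 without GapC9 replicate 3, so its size and its rank rest on single libraries. An exon of NUP43 overlaps PCMT1 on the other strand, which was at 21.8 to 27.9 FPKM.

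The inner ring, which ties the scaffold to the membrane, also had 0 of 5 members called. NUP35, which touches the membrane itself, was at 5.79, 5.04 and 6.50 FPKM in GapNC and at 3.66, 4.10 and 3.05 FPKM in GapC9. The groups did not overlap, and the log2 difference of −0.67 ± 0.16 (95% interval −1.06 to −0.28) had an adjusted p of 0.0629 by limma. NUP93, the linker that recruits the channel complex, was at 10.2, 9.50 and 8.64 FPKM in GapNC and at 7.17, 7.31 and 7.51 FPKM in GapC9 (log2 difference −0.36 ± 0.10, adjusted p = 0.0979 by limma). The large scaffold proteins NUP188 and NUP205 had fitted differences of the opposite sign, and neither passed the test. NUP188, the most abundant of the ring, was at 35.1, 27.2 and 29.1 FPKM in GapNC and at 35.2, 34.8 and 31.3 FPKM in GapC9 (log2 difference 0.15 ± 0.13, 95% interval −0.15 to 0.46, adjusted p = 0.486 by limma). NUP205 was at 28.0, 30.3 and 31.3 FPKM in GapNC and at 32.6, 33.3 and 34.0 FPKM in GapC9, and NUP155 ranged from 11.6 to 18.9 FPKM with overlapping groups. The summed level of the ring was 91.4 ± 2.72 FPKM in GapNC and 91.2 ± 0.943 FPKM in GapC9. The membrane nucleoporin NUP210 was at 14.7, 12.6 and 12.4 FPKM in GapNC and at 13.0, 9.75 and 10.4 FPKM in GapC9, with overlapping groups (log2 difference −0.27 ± 0.14, 95% interval −0.62 to 0.09, adjusted p = 0.2999 by limma). NUP210 had the highest GC content of the 40 (58.8%), and its difference was −0.12 with median scaling and −0.02 with a correction for GC content.

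**Figure D2:**
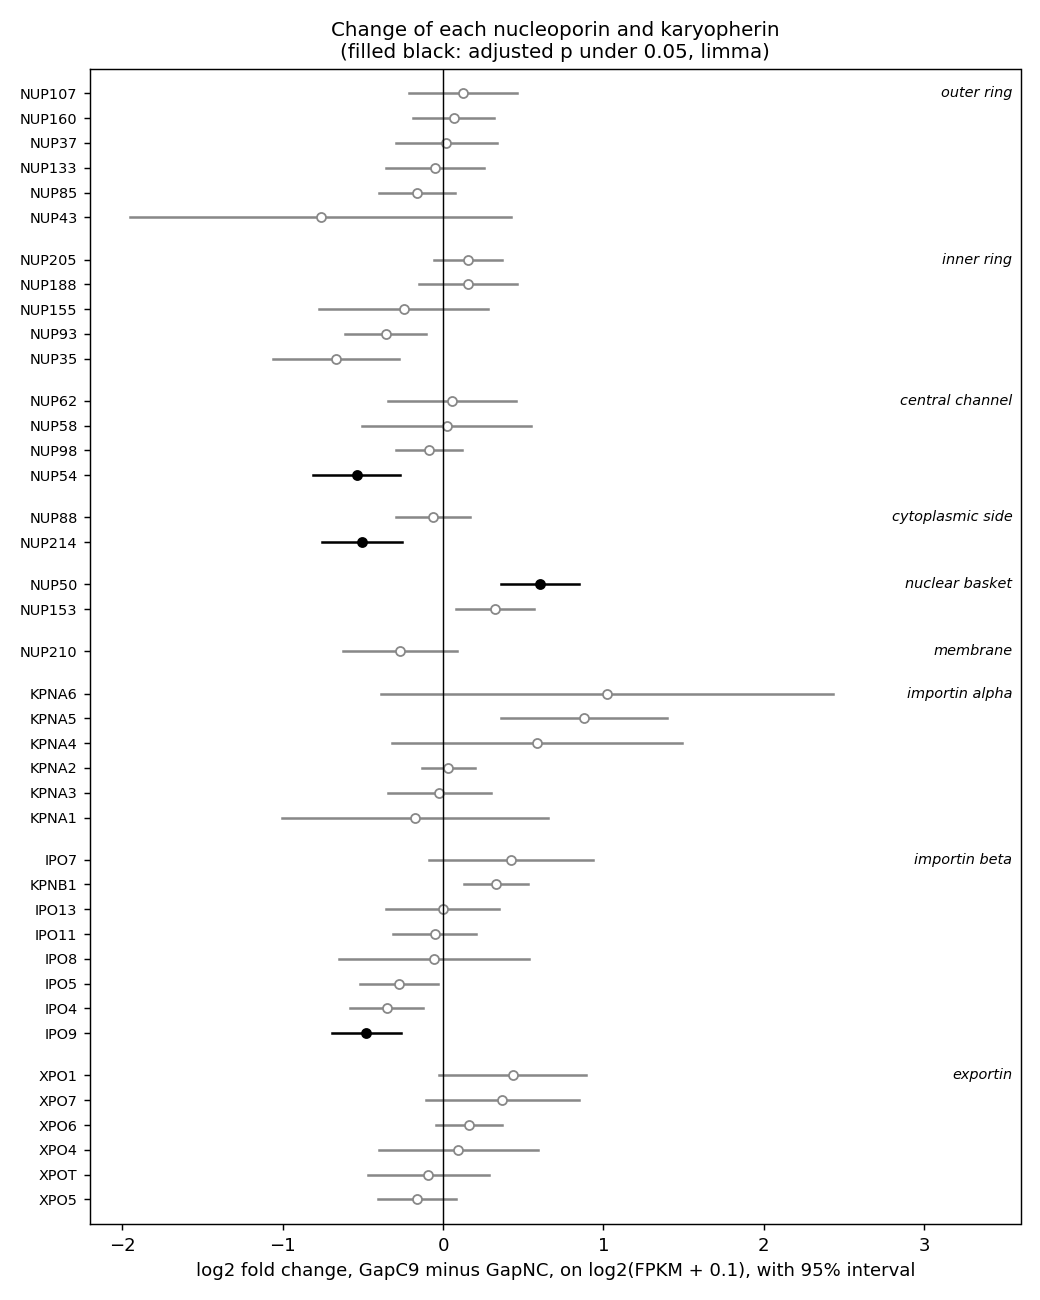
Fitted log2 fold change (horizontal axis, GapC9 minus GapNC on log2(FPKM + 0.1)) with its 95% interval for the 40 tested nucleoporins and karyopherins, in blocks by class; black filled points have an adjusted p under 0.05. NUP50 lies right of 0 at 0.61 and NUP54, NUP214 and IPO9 lie left of it at −0.54, −0.51 and −0.48, whereas KPNA6 and NUP43, at 1.02 and −0.76, have intervals that include 0.

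Among the importin alpha adaptors, 0 of 6 tested members were called. KPNA2 was the most abundant of all 42 genes and the most even, at 162, 159 and 162 FPKM in GapNC and at 163, 169 and 163 FPKM in GapC9 (log2 difference 0.03 ± 0.07, 95% interval −0.13 to 0.20, adjusted p = 0.792 by limma; −0.02 after quantile normalization). The interval leaves room for only small changes. KPNA5 was the lowest adaptor tested, at 0.801, 1.23 and 1.36 FPKM in GapNC and at 1.92, 2.21 and 2.22 FPKM in GapC9. Its groups did not overlap, and its log2 difference of 0.88 ± 0.21 (95% interval 0.36 to 1.39) had an adjusted p of 0.0645 by limma. KPNA6 had the largest fitted rise of the 40, at 6.43, 25.3 and 5.42 FPKM in GapNC and at 18.6, 20.4 and 20.0 FPKM in GapC9 (log2 difference 1.02 ± 0.58, 95% interval −0.39 to 2.43, adjusted p = 0.319 by limma). GapNC replicate 2 lay above all GapC9 libraries and the other two GapNC libraries far below them. Without GapNC replicate 2 the log2 difference was 1.72 (adjusted p = 0.0292 by limma), and without GapNC replicate 3 it was 0.61 (adjusted p = 0.561), so single libraries decided that value. KPNA4 and KPNA1 each had 1 GapNC library apart from the other two. KPNA4 was at 7.16, 18.5 and 17.3 FPKM in GapNC and at 19.0, 21.9 and 18.8 FPKM in GapC9, and KPNA1 was at 5.29, 6.52 and 13.1 FPKM in GapNC and at 6.53, 6.30 and 7.62 FPKM in GapC9. KPNA3 lay between 17.2 and 22.0 FPKM, with overlapping groups.

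The importin beta family showed values on both sides. IPO9 (GRCh38 chromosome 1, 201829141 to 201884294, plus strand), known as an importer and chaperone of histones, was at 11.9, 12.1 and 12.7 FPKM in GapNC and at 8.77, 8.88 and 8.60 FPKM in GapC9. Both groups were tight and did not overlap. The mean went from 12.2 ± 0.395 to 8.75 ± 0.141 FPKM, a log2 change of −0.48 ± 0.09 (95% interval −0.69 to −0.26, adjusted p = 0.0366 by limma). KPNB1, the importin beta that carries the importin alpha adaptors, was the second most abundant of the 42, at 98.4, 89.1 and 100.4 FPKM in GapNC and at 118.0, 121.2 and 121.8 FPKM in GapC9. The groups did not overlap, and the mean was 96.0 ± 6.03 FPKM in GapNC and 120.3 ± 2.06 FPKM in GapC9 (log2 difference 0.33 ± 0.08, 95% interval 0.13 to 0.53, adjusted p = 0.0688 by limma). Median scaling and the GC correction brought KPNB1 past the threshold, at adjusted p = 0.0364 and 0.0253 by limma. In the other 14 alternative fits it stayed outside. Its adjusted p was 0.0528 with a filter of at least 1 FPKM and 0.116 with quantile normalization. It was 0.165 with no filter and up to 0.210 with 1 library left out.

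Of the other importins, IPO4 and IPO5, which also carry histones and ribosomal proteins, were lower in all GapC9 libraries without passing the test. IPO4 was at 17.5, 15.8 and 15.6 FPKM in GapNC and at 13.0, 12.5 and 12.7 FPKM in GapC9 (log2 difference −0.35 ± 0.09, adjusted p = 0.0792 by limma), in a locus whose name joins it with 8 other genes. Its difference was −0.20 with median scaling and −0.18 with a correction for GC content (adjusted p = 0.199 and 0.113 by limma). IPO5 was at 29.1, 34.0 and 33.9 FPKM in GapNC and at 25.9, 27.1 and 27.0 FPKM in GapC9 (log2 difference −0.27 ± 0.10, adjusted p = 0.154 by limma). Full values are given for IPO4, IPO5 and NUP93, which the naming rule does not require, because their unadjusted p by limma was under 0.05. IPO7, the third most abundant of the 42, was at 37.3, 50.3 and 40.7 FPKM in GapNC and at 42.9, 64.4 and 66.6 FPKM in GapC9, and these groups overlapped. IPO8 ranged from 7.24 to 12.3 FPKM, IPO11 from 4.64 to 5.47 FPKM and IPO13 from 4.69 to 6.29 FPKM, each with overlapping groups.

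Of the 6 exportins, 0 were called. XPO1, the main protein exporter, was at 16.1, 23.8 and 24.6 FPKM in GapNC and at 26.0, 29.3 and 30.9 FPKM in GapC9. The groups did not overlap, but GapNC replicate 1 lay far below the other two, and the log2 difference of 0.44 ± 0.19 (95% interval −0.02 to 0.89, adjusted p = 0.208 by limma) was 0.24 without it. XPO6, which exports actin with profilin and was the most abundant exportin, was at 31.2, 30.4 and 31.8 FPKM in GapNC and at 34.2, 33.5 and 36.9 FPKM in GapC9 (log2 difference 0.16 ± 0.08, 95% interval −0.05 to 0.37, adjusted p = 0.288 by limma). XPO5, the exporter of precursor microRNAs, was at 13.9, 12.9 and 14.2 FPKM in GapNC and at 11.4, 13.0 and 12.2 FPKM in GapC9, and XPOT, the tRNA exporter, ranged from 20.9 to 29.8 FPKM. XPO4 lay between 6.41 and 10.2 FPKM and XPO7 between 12.1 and 20.8 FPKM. The groups overlapped in these 4.

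In order of mean level, KPNA2 (163 FPKM), KPNB1 (108 FPKM) and IPO7 (50.4 FPKM) led, and the libraries of these 3 did not overlap with each other. XPO6 (33.0 FPKM), NUP188 (32.1 FPKM), NUP205 (31.6 FPKM), NUP50 (30.5 FPKM), IPO5 (29.5 FPKM) and NUP153 (28.7 FPKM) followed, and the ranges of neighbors in this group overlapped. The median of the means of the 40 tested genes was 14.5 FPKM. Of the 42 means, 28 reached 10 FPKM and 35 reached 5 FPKM. KPNA2 and KPNB1 together held 30.7% of the summed FPKM of the 42. That sum was 814, 869 and 884 FPKM in GapNC and 883, 927 and 931 FPKM in GapC9, or 0.488% to 0.603% of all FPKM of a library.

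Over the 40 genes the median log2 difference was −0.01, beside −0.08 over all genes tested, and the median of its absolute value was 0.17, beside 0.33 over all genes tested and 0.27 over the 5562 genes whose mean reached 5 FPKM. The fitted value was above 0 in 19 of 40 (47.5%), beside 43.6% of all genes. At an unadjusted p under 0.05, 11 of 40 (27.5%) passed, beside 25.9% of all genes tested. KPNA5, KPNB1, NUP153 and NUP50 (10.0%) were higher, beside 9.09%, and IPO4, IPO5, IPO9, NUP214, NUP35, NUP54 and NUP93 (17.5%) were lower, beside 16.8%, so these shares are those of the background. The groups did not overlap, with GapC9 higher, in 9 of 40 (22.5%), beside 12.6% of all genes, and with GapC9 lower in 8 of 40 (20.0%), beside 21.6%. The first 9 were KPNA2, KPNA4, KPNA5, KPNB1, NUP50, NUP153, NUP205, XPO1 and XPO6, of which NUP50 alone was called.

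**Figure D3:**
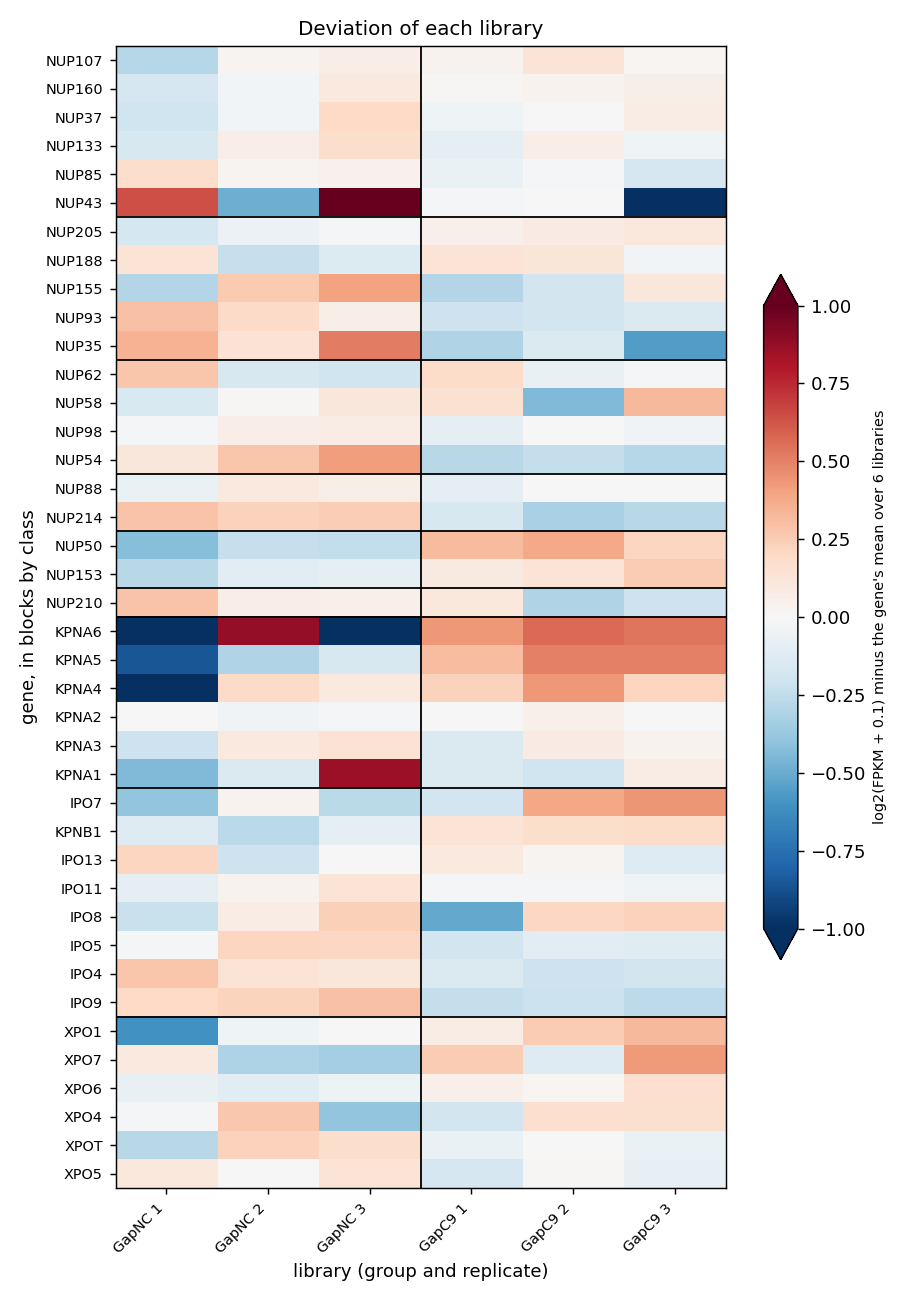
Deviation of log2(FPKM + 0.1) from the mean of the gene over the 6 libraries (color, red above and blue below, cut at 1 in each direction) for the 40 tested genes (rows, in blocks by class) and the 6 libraries (columns). NUP50 and KPNB1 are blue in all 3 GapNC and red in all 3 GapC9 columns, NUP54, NUP214 and IPO9 the reverse, and KPNA6, KPNA4, KPNA1 and NUP43 carry strong deviations in single libraries.

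Companion genes of the same machinery whose symbols do not follow these names were listed by hand, 25 in all: other pore proteins (AHCTF1, SEC13, NDC1, POM121, GLE1, RANBP2, TPR and others), transportins, CSE1L, and the RAN cycle and mRNA export factors. By adjusted p, 0 of 25 were called by limma, beside 6.99% of all genes tested. At an unadjusted p under 0.05, 6 of the 25 passed, of which 3 were higher and 3 lower, beside 25.9% of all genes tested (9.09% higher and 16.8% lower), so this share is near the background. The median log2 difference of the 25 was −0.07. RAN, the GTPase that drives the carriers, was at 86.4, 116.7 and 119.5 FPKM in GapNC and at 126.4, 104.8 and 129.0 FPKM in GapC9 (log2 difference 0.17 ± 0.16, adjusted p = 0.551 by limma). CSE1L, the exportin that returns importin alpha to the cytoplasm, was at 73.1, 101.6 and 109.9 FPKM in GapNC and at 82.5, 89.4 and 95.4 FPKM in GapC9 (log2 difference −0.07 ± 0.17, adjusted p = 0.829 by limma). In both genes the groups overlapped, and GapNC replicate 1 was the lowest library. Among all 27918 genes and loci, the GO term nuclear pore stood beside 75 in the annotation of the table, of which 34 were nucleoporins and karyopherins of the set, and the KEGG term RNA transport beside 163, of which 25 were.

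GapNC replicate 1 stood apart in how its values followed GC content, and this touched the pore genes. Spearman's correlation of GC content with the deviation of a library from the mean of the gene was taken across 10117 genes. It was 0.616, 0.00964 and −0.104 in GapNC replicates 1, 2 and 3. In GapC9 replicates 1, 2 and 3 it was 0.0287, −0.336 and −0.376. The mean of the gene was taken over all libraries, so the deviation of each library depends on the others and these correlations are not independent. GC content correlated with the log2 difference at −0.250 over all genes tested and at −0.174 over the 40. Over the 40 it correlated at −0.0173 with the log2 difference fitted without GapNC replicate 1. Genes are not independent replicates, so no p is given. The 40 genes had a median GC content of 45.4%, beside 50.2% for all genes tested. GapNC replicate 1 was the lowest GapNC library in 16 of the 19 with a GC content under 45% and in 7 of the 21 at or above it. Over the 40, GC content correlated at 0.633 (Spearman, a description over genes that share these libraries) with the difference between GapNC replicate 1 and the mean of the other two. The coefficient of variation of FPKM was larger in GapNC than in GapC9 for 30 of the 40 genes tested, and its median over the 40 was 11.1% and 5.95%.

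**Figure D4:**
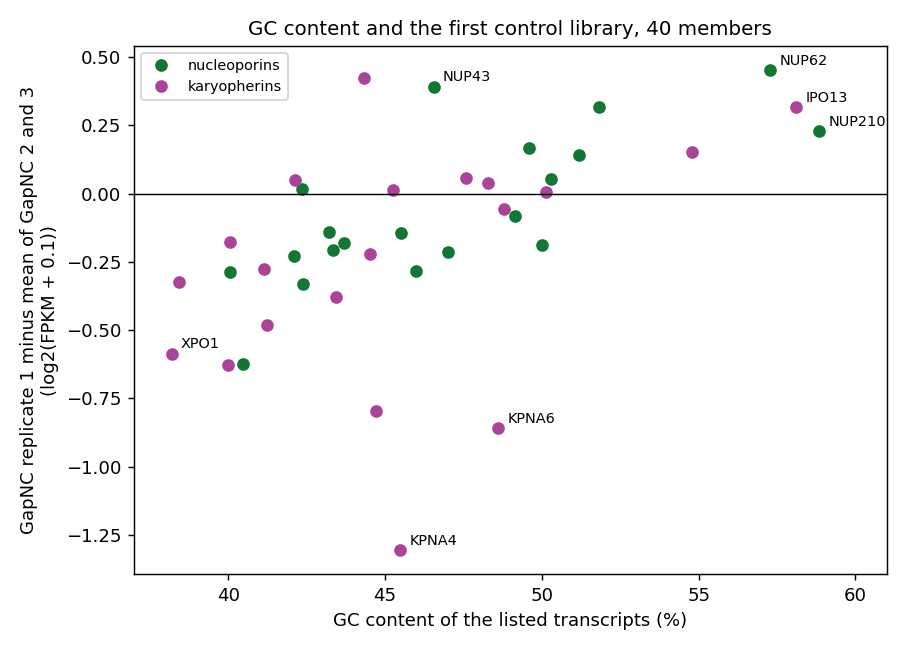
GC content of the listed transcripts (horizontal axis, %) against the difference of log2(FPKM + 0.1) between GapNC replicate 1 and the mean of GapNC replicates 2 and 3 (vertical axis), 1 point per tested gene, nucleoporins in green and karyopherins in purple. Points under 45% GC lie mostly below 0 and those of NUP62, IPO13 and NUP210 above it (Spearman 0.633, n = 40), with KPNA4 the lowest point and KPNA6 next to it in order.

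With a lowess correction for GC content in every library, 9 of 40 genes (22.5%) were called, beside 14.5% of all genes tested. They were the 4 called before and KPNA5, KPNB1, NUP153, NUP35 and IPO5. The log2 changes of NUP50, NUP54, NUP214 and IPO9 were then 0.69, −0.62, −0.42 and −0.42, with adjusted p = 0.0110, 0.00684, 0.0195 and 0.0128 by limma. Under the same correction 5 of the 25 companions (20.0%) were called, beside the same 14.5% of all genes tested. AHCTF1, GLE1, NXF1 and POM121C were higher and RANBP2 lower. The part of GC content in the uncorrected differences was not tested further.

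The 4 calls were not robust to every choice. Leaving out GapNC replicate 1 kept NUP50, NUP54 and IPO9 past the threshold (adjusted p = 0.0388, 0.0340 and 0.0388 by limma), and NUP214 then had 0.0613. Leaving out GapNC replicate 2 or 3 or any GapC9 library ended all 4 calls, with adjusted p between 0.0742 and 0.155, while the genes called over the whole table fell from 303 higher and 817 lower to between 16 and 38 higher and between 16 and 84 lower. The log2 changes kept their direction in each of these fits, at 0.54 to 0.65 for NUP50, −0.61 to −0.46 for NUP54, −0.55 to −0.47 for NUP214 and −0.50 to −0.45 for IPO9. Median scaling, which moved the median of all genes up by 0.134 on the log2 scale, and quantile normalization kept NUP50 (adjusted p = 0.0267 and 0.0419) and ended the calls of NUP54 (0.113 and 0.0865), NUP214 (0.0854 and 0.0766) and IPO9 (0.0897 and 0.0652).

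The table joined 8 of the 42 genes with a neighbor under 1 locus, among them NUP62, NUP98, NUP133, NUP188, KPNA6 and IPO4, but none of the 4 called. Whether reads were counted by strand is not stated. Exons of NUP50 and NUP54 overlap no gene of the other strand in the annotation. Those of IPO9 overlap IPO9-AS1, which was at 0.0295 to 0.352 FPKM, and those of NUP214 overlap AL157938.2 and AL157938.3, which reached 0.0364 and 0.117 FPKM, levels far under those of IPO9 and NUP214. Pseudogenes of 6 of the 42 (NUP35, KPNA2, IPO5, IPO7, IPO8 and XPOT) are listed apart in the table, at up to 3.47 FPKM for a locus that includes KPNA2P3 and up to 0.675 FPKM for the others, and how reads were shared with them was not tested.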

How the data were processed

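RNA-seq of HCT-116 cells with a control (GapNC) or CASC9 (GapC9) GapmeR was used, 3 libraries per group by their titles. The authors aligned reads with HISAT, computed FPKM in StringTie and deposited these FPKM values without counts. The submitters' processing notes name Bowtie 0.12.2, HISAT2 2.0 and StringTie 1.3.0, and a mouse build, mm8, although all identifiers are human. The build of the files is not given in the sources used here. Positions, GC content (99.3% of genes tested) and overlaps came from the GENCODE annotation of GRCh38, and promoters from RefSeq. FPKM is relative, so a rise in abundant RNAs lowers all other values. The authors' edgeR calls were not rerun.

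In R 4.3.3, limma 3.58.1 (lmFit, eBayes with trend, two-sided) was fitted to log2(FPKM + 0.1) of all genes whose mean reached 0.1 FPKM, with the 6 libraries in one fit, with Benjamini-Hochberg adjustment, and tested on simulated data. Figures and exact tests used Python 3.11.15, scipy 1.17.1 and matplotlib 3.10.9. The depth, from the most frequent low value within a window set beforehand, is an estimate, and no counting error can be given. Genes with full values were the called ones, the 3 largest rises and falls, the most abundant of each class, and KPNB1, XPO1, NUP98, NUP62 and NUP153, and of the companions RAN, RANBP2, TPR and CSE1L. The genes and lists were chosen with earlier results of these data known. Alternatives were other pseudocounts (1 and 0.01) and filters, median scaling, quantile normalization, GC correction (lowess, span 0.3), limma without trend, a replicate block, and each library left out.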

Additional observations from a re-analysis of the deposited data

How the results depend on the processing

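No counts were available, and it is not stated whether the libraries came from separate cultures. The spread of 3 libraries per group is the only error available. Nucleoporins and karyopherins called by adjusted p were 1 higher and 3 lower. They were 2 higher and 0 lower with median scaling, 1 and 0 with quantile normalization, 4 and 5 with GC correction, 1 and 1 with no filter, and 0 and 0 with limma without trend and with a replicate block. Over all genes, 303 were higher and 817 lower, and 508 and 437 with median scaling, 347 and 516 with quantile normalization, 1087 and 1244 with GC correction, 146 and 346 with no filter, 238 and 660 with limma without trend, and 0 and 0 with a replicate block. Of the nucleoporins and karyopherins, leaving out 1 library gave 0 to 1 higher and 0 to 2 lower. Over all genes it gave 240 higher and 570 lower without GapNC replicate 1. Without another library it gave between 16 and 38 higher and between 16 and 84 lower. By fold and unadjusted p, 0 nucleoporins and karyopherins were higher or lower, beside 6.42% of all genes tested. With median scaling and with quantile normalization 1 was higher. Leaving out 1 library gave 0 to 1 in each direction (1 higher without GapNC replicate 2 or 3, and 1 lower without GapNC replicate 2). The shares of all genes by fold and unadjusted p in these other fits were not computed, so these counts have no background beside them. Of the 25 companions, the number called went from 0 to 2 with a filter of at least 1 FPKM or without genes listed at 0. It was 1 with median scaling, 1 with quantile normalization, 5 with GC correction, and 0 to 1 with 1 library left out. Of all genes tested, 11.7% were called with that filter and 8.71% without genes listed at 0. The share was 5.90% with median scaling, 5.38% with quantile normalization and 14.5% with GC correction. The median log2 difference of −0.01 became 0.14 with median scaling, which moved the median of all genes by 0.134, and lay between −0.0919 and 0.0317 with 1 library left out. The cause of these shifts was not tested. Limma without trend ended the calls of NUP50 (adjusted p = 0.0502), NUP54 (0.0672), NUP214 (0.0572) and IPO9 (0.0576), and no filter those of NUP54 (0.0662) and NUP214 (0.0591), with more genes tested. NUP35 passed at 0.0471 with a filter of at least 1 FPKM. Median scaling moved the differences of NUP93 to −0.21, IPO5 to −0.12, NUP188 to 0.31 and XPO6 to 0.31, and a pseudocount of 1 moved that of KPNA5 to 0.56. Differences near 0 changed sign: KPNA2 to −0.0208 with quantile normalization, NUP160 to −0.000673 without GapNC replicate 1 (up to 0.135 with another library left out), NUP62 to −0.0276 without GapNC replicate 3 (up to 0.207 with another left out), and NUP88 to 0.0900 and NUP98 to 0.0641 with median scaling. Nothing says whether same-numbered libraries were handled together. Their deviations correlated at 0.113, 0.0362 and 0.0332. GapNC replicates 1 and 2 each correlated best with the GapC9 library of the same number. GapNC replicate 3 correlated best with GapC9 replicate 2 (0.0867). A pairing was not tested further. The replicate block called 0 genes in the whole table, and gave NUP50, NUP54, NUP214 and IPO9 an adjusted p of 0.0651, 0.0741, 0.0699 and 0.0682.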

Other observations

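NUP50-AS1 and NXT1, chosen after their values were seen, stand near the genes described. NUP50-AS1, a noncoding gene that shares no annotated exon with NUP50, was at 0.383, 0.941 and 0.144 FPKM in GapNC and at 2.11, 2.24 and 0.929 FPKM in GapC9 (log2 difference 1.81 ± 0.59, adjusted p = 0.127 by limma), so the lowest GapC9 library lay just under the highest GapNC library. NXT1, the partner of the mRNA export receptor NXF1, was at 15.1, 15.9 and 14.9 FPKM in GapNC and at 15.5, 2.84 and 2.45 FPKM in GapC9 (log2 difference −1.65 ± 0.69, adjusted p = 0.198 by limma). GapC9 replicate 1 lay within the GapNC range and GapC9 replicates 2 and 3 far below it. Without GapC9 replicate 1 the log2 difference was −2.49 (adjusted p = 0.00697 by limma). With other libraries left out it reached −1.18 without passing the test, so single libraries decided that value. POM121C, a membrane nucleoporin outside the set and the naming rule, is joined with PMS2P3 under 1 locus. That locus was at 12.6, 10.5 and 11.4 FPKM in GapNC and at 19.2, 15.4 and 20.5 FPKM in GapC9. These groups did not overlap (log2 difference 0.66 ± 0.14, adjusted p = 0.0507 by limma). POM121, another membrane nucleoporin outside the set and the naming rule, was at 17.4, 11.9 and 12.0 FPKM in GapNC and at 15.4, 20.1 and 18.0 FPKM in GapC9. Its groups overlapped (log2 difference 0.39 ± 0.19, adjusted p = 0.263 by limma). How reads were shared between POM121 and POM121C was not tested.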
